A study of Mus musculus with 30 samples.

Results

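The genes described here were the matrix metalloproteases (Mmp), the tissue inhibitors of metalloproteases (Timp), and the ADAMTS and ADAMTS-like genes (Adamts and Adamtsl), taken by gene symbol from the kidney and gastrocnemius count tables of the study. The symbols gave 51 genes, of 54838 in the kidney table and 55487 in the gastrocnemius table, and the same 51 in both: 23 Mmp, 4 Timp, 19 Adamts and 5 Adamtsl genes. Of these, 36 passed the low-count filter in each tissue, 34 of them in both, 2 (Mmp13 and Mmp25) in kidney alone and 2 (Adamts18 and Adamts20) in gastrocnemius alone. The remaining 13 passed in neither.

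The study asked what cyclo(His-Pro) (CHP), a cyclic dipeptide, does in mice fed a western diet (WD) to produce fatty liver and metabolic disease, and the libraries here came from kidney and from gastrocnemius, a calf muscle. All mice were male wild-type C57BL/6J animals housed at 30 to 32 °C, and each tissue had 3 groups of 5 mice: chow diet (CD) with water by gavage, WD with water, and WD with CHP (WD + CHP). Diet and gavage ran from 7 weeks of age, and CHP was given at 20 mg/kg 3 times per week. The mice were killed at 24 weeks of age, having had no food for 3 h. The libraries were polyA-selected, 1 per mouse and tissue. Whether the kidney and the muscle of a given number came from the same mouse was not stated.

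Metalloproteases of the Mmp family carry zinc in the active site and are made as inactive precursors that cleave collagens, elastin, proteoglycans and many cell-surface proteins once activated. TIMP proteins bind the active site and block it. ADAMTS enzymes are secreted relatives with thrombospondin repeats that hold them in the matrix; some cut the large aggregating proteoglycans and others remove the N-terminal propeptide of fibrillar procollagens. ADAMTS-like proteins have the repeats but no protease domain, and several bind fibrillin microfibrils. In kidney and muscle these genes are studied for matrix turnover in fibrosis and repair.

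Total counts lay between 37189192 and 38211422 per kidney library and between 50319024 and 53282969 per gastrocnemius library. Gastrocnemius CD replicate 5 had counts on 24482 genes, beside 21333 to 22161 in the other gastrocnemius libraries. The tissue labels were checked against marker genes, because 1 field of the labels gives frozen liver as the source of all 30 libraries. Summed over 8 proximal tubule genes, the level was 11579 to 13977.5 CPM (reads on a gene relative to the scaled total of its library) in the kidney libraries and 0.844 to 1.49 in the gastrocnemius libraries; summed over 8 fast muscle fibre genes it was 1.53 to 2.41 CPM in kidney and 134583 to 186785 in gastrocnemius. Transcripts of 6 hepatocyte genes were highest in gastrocnemius CD replicate 1 (59.6 CPM) and WD replicate 3 (60.5 CPM), and in kidney WD replicate 5 (829 CPM). For the comparisons within a tissue, the counts of members called without these libraries are given below with the calls that then change. In whole tissue, fewer cells of a type and less RNA per cell cannot be told apart.

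The inhibitors Timp3 and Timp2 were the highest members in both tissues of CD mice, with Timp3 ahead in kidney and Timp2 in gastrocnemius. Levels between genes were compared as CPM per kb of exon. In CD kidneys Timp3 led with 123 ± 15.4 CPM per kb (SD, n = 5), followed by Timp2 at 14.1 ± 1.53 and Adamts1, a protease of the proteoglycan-cutting branch, at 6.69 ± 0.80. The ranges of these 3 genes did not overlap with the gene ranked next. Mmp11 (2.22 ± 0.26) and Adamts15 (1.90 ± 0.53) came next, with ranges that overlapped each other. Timp3 alone took 81.4 ± 2.05% of all counts on the members in CD kidneys. Part of the Timp3 exons (21.3%) lies opposite exons of Syn3 on the other strand, and whether counting used strand is not given in the sources used here.

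In CD gastrocnemius the order began with Timp2 at 30.8 ± 3.05 CPM per kb and Timp3 at 19.0 ± 1.42, whose ranges did not overlap. Mmp2, gelatinase A, held rank 3 at 13.6 ± 3.03. Adamts1 (8.60 ± 2.12) and Mmp15 (6.12 ± 0.48), a membrane-type Mmp, followed, with ranges overlapping those of their neighbours. With the longest transcript in place of the exon union as length, Timp3 and Timp2 changed places in gastrocnemius, and in kidney Mmp11 fell to rank 6. Timp4 was the lowest tested member in kidney (0.0377 CPM per kb) and the seventh highest in gastrocnemius (5.49 ± 0.78). Mmp12, macrophage elastase, was at 0.00802 CPM per kb in CD gastrocnemius, the lowest of the tested members there.

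**Figure D1:**
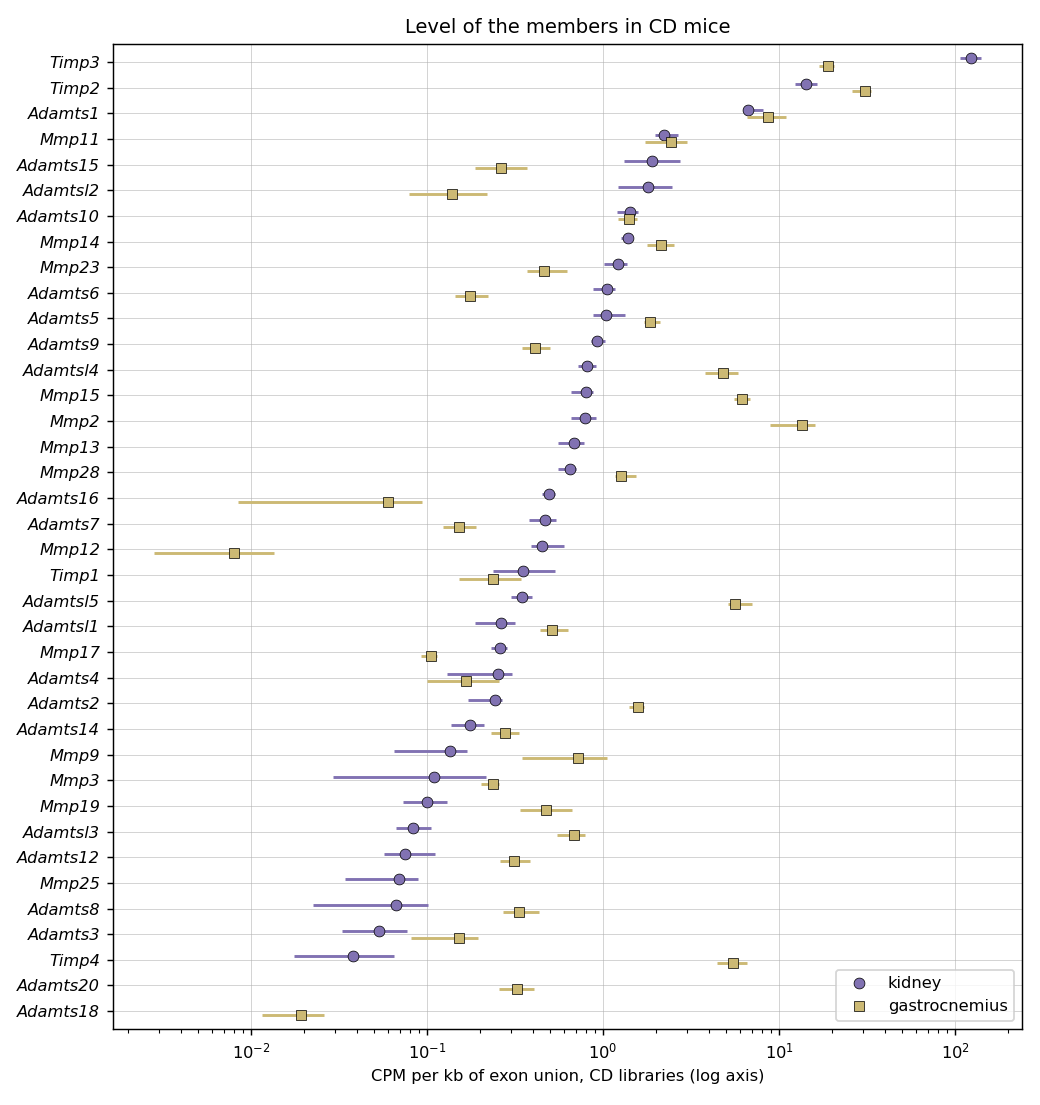
Level of each tested member in CD mice, as CPM per kb of exon union on a log axis, ordered by kidney; points are means of 5 libraries (circles, kidney; squares, gastrocnemius) and lines run from the lowest to the highest library. Timp3 stands at 123 in kidney and Timp2 at 30.8 in gastrocnemius, while Mmp12 is at 0.00802 in gastrocnemius.

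The question of the WD vs. CD comparison was which of these genes differ with the diet. In kidney, 7 members were higher in WD and 1 was lower: Adamts14, Adamtsl2, Adamts2, Adamtsl5, Mmp2, Adamts5 and Timp3 rose, and Mmp11 fell. These 8 of the 36 tested members stood beside 9.65% of all genes tested in that tissue (edgeR quasi-likelihood F test, Benjamini-Hochberg adjusted p under 0.05). Before adjustment 15 of the 36 had p under 0.05, beside 24.9% of all genes. The estimate was above 0 for 26 members and below 0 for 10, with a median log2 difference of 0.15 beside 0.0015 over all genes tested.

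Among the inhibitors only Timp3, which binds to the matrix and also blocks several ADAMTS enzymes, passed the test in kidney. Its level was 1086, 1144, 1053, 883 and 863 CPM in the CD kidneys and 1387, 1348, 1382, 1274 and 1213 CPM in the WD kidneys. All WD kidneys were above all CD kidneys, and the log2 difference was 0.39 ± 0.08 (SE), or 1.31-fold, with an edgeR adjusted p of 0.00675. Timp2 had a log2 difference of 0.13 ± 0.06 and an adjusted p of 0.187. Timp1 and Timp4 lay under 0.5 CPM in every CD and WD kidney, with differences of 0.05 ± 0.25 and -0.08 ± 0.41.

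The ADAMTS genes that rose in kidney included 2 of the 3 procollagen N-propeptidases, which trim procollagens so that they can assemble into fibrils. Adamts2 (chr11:50602084-50807573, GRCm38, plus strand) was at 2.49, 2.39, 2.35, 2.5 and 1.6 CPM in CD and at 4.09, 3.58, 3.68, 2.95 and 3.31 CPM in WD kidneys. Adamts14 (chr10:61197112-61273438, minus strand) was at 1.10, 1.06, 0.784, 0.903 and 0.712 CPM in CD and at 1.32, 1.96, 1.19, 1.87 and 1.5 CPM in WD. For both genes every WD kidney was above every CD kidney. The log2 differences were 0.64 ± 0.13 for Adamts2 (adjusted p 0.00516) and 0.78 ± 0.18 for Adamts14 (adjusted p 0.0109, edgeR). Adamts3, the remaining gene of this branch, was named after its values were seen and had a log2 difference of 0.10 with an adjusted p of 0.884.

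Of the proteoglycan-cutting ADAMTS genes, 6 were tested in kidney and Adamts5, the main aggrecanase of mouse cartilage, passed. It was at 11.3, 11.4, 9.67, 14.4 and 9.44 CPM in CD and at 15.3, 16.5, 17.4, 16.1 and 14 CPM in WD kidneys. CD replicate 4 reached into the WD range, and the other 4 CD kidneys were below every WD kidney. WD minus CD was 0.50 ± 0.13 on the log2 scale (edgeR adjusted p 0.0203), and the call ended when CD replicate 5 or WD replicate 3 was left out, with adjusted p of at most 0.0508. Adamts1 had a difference of 0.21 ± 0.13 (adjusted p 0.315), Adamts9 0.20 ± 0.07 (0.0925), Adamts15 0.15 ± 0.18 (0.656) and Adamts8 -0.27 ± 0.33 (0.663).

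Among the ADAMTS-like genes all 5 had estimates above 0 in kidney, and 2 passed. Adamtsl2, a matrix protein that binds fibrillin and the latent complex of TGF-beta, was at 13.2, 14.6, 14.8, 19.6 and 9.72 CPM in CD and at 29.5, 27.7, 21.0, 22.9 and 17.2 CPM in WD kidneys. The WD kidneys were above the CD kidneys except for WD replicate 5, which lay below CD replicate 4. This gave a log2 difference of 0.72 ± 0.15 (1.64-fold, edgeR adjusted p 0.00718). Adamtsl5, also a fibrillin-binding protein, went from 1.86, 1.43, 1.80, 1.63 and 1.42 CPM to 2.74, 2.28, 2.14, 2.08 and 2.51 CPM without overlap, a log2 difference of 0.53 ± 0.13 (adjusted p 0.0149). Adamtsl1 (0.06 ± 0.14) and Adamtsl4 (0.14 ± 0.10) did not pass.

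Because Adamts2, Adamts14 and Adamtsl2 had the 3 largest rises that passed in kidney, the sequence just before each gene is shown (RefSeq promoter table, GRCm38.p6). Promoter entries were found for 36 of the 51 members. The regions are chr11:50601835-50602083 (plus strand), chr10:61273439-61273669 (minus strand) and chr2:27079129-27079378 (plus strand), written 5′ to 3′ in the direction of the gene and ending where the annotated gene begins. Capitals mark GC boxes (GGGCGG or its complement) and TATA boxes (TATAAA), searched on both strands together with AP-1 sites (TGANTCA) and CCAAT boxes in the 250 bases before the start.
Adamts2: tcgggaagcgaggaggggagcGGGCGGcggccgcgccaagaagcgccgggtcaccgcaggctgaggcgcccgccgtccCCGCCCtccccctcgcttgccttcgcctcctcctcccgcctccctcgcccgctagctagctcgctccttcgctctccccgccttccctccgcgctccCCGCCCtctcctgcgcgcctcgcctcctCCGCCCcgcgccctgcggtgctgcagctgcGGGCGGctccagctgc
Adamts14: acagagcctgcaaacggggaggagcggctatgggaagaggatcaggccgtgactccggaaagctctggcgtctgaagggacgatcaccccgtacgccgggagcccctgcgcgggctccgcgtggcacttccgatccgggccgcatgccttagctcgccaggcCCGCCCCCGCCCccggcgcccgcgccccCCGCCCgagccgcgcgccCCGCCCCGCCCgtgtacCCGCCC
Adamtsl2: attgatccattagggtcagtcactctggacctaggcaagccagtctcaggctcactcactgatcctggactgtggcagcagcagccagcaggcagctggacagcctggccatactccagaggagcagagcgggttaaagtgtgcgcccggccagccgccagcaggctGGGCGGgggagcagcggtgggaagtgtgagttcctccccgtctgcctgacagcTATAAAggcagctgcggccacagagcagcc
GC boxes were found 5 times before Adamts2 and 6 times before Adamts14, with no AP-1, TATA or CCAAT match in either. Adamtsl2 had a TATA box 30 bases and a GC box 83 bases before its start. Of all 32851 promoters searched, 32.7% held a GC box, 12.4% a TATA box, 33.8% a CCAAT box and 6.75% an AP-1 site. A match describes the letters and shows no binding.

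Among the metalloproteases themselves 1 rose and 1 fell in kidney. Mmp2, which cleaves denatured and basement membrane collagen, was at 2.33, 3.09, 2.69, 2.92 and 2.21 CPM in CD and at 4.38, 4.16, 3.60, 4.01 and 2.66 CPM in WD kidneys. WD replicate 5 lay within the CD range and the other 4 were above it. The log2 difference was 0.51 ± 0.14 (edgeR adjusted p 0.0334), and the call held in 3 of 10 fits that left out 1 library, with adjusted p from 0.00762 to 0.0837.

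Mmp11, stromelysin-3, which furin activates inside the cell, was at 5.45, 5.97, 5.96, 6.11 and 7.40 CPM in CD and at 5.80, 4.69, 3.49, 4.06 and 4.29 CPM in WD kidneys. Only WD replicate 1 reached the CD range. The log2 difference was -0.47 ± 0.14 (edgeR adjusted p 0.0478), and the call held in 1 of 10 fits with a library left out, with adjusted p from 0.0218 to 0.124. A part of the Mmp11 exons (5.58%) lies opposite Chchd10. Mmp9, gelatinase B, had a difference of -0.45 ± 0.32, and the membrane-type genes Mmp14 (-0.04 ± 0.09), Mmp15 (0.13 ± 0.12) and Mmp17 (0.24 ± 0.11) did not pass.

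**Figure D2:**
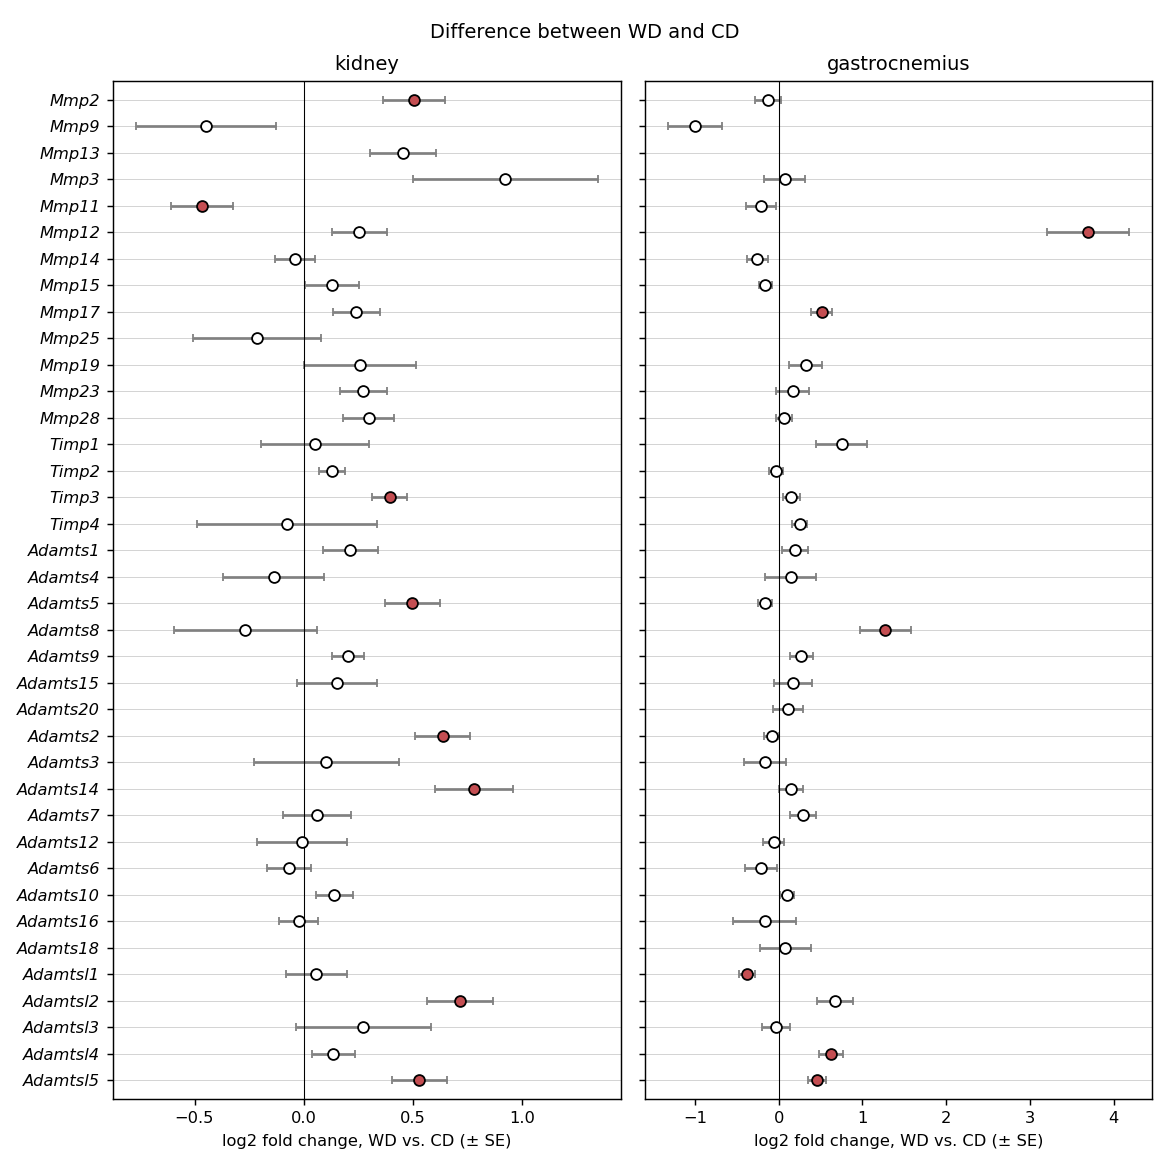
Log2 difference WD vs. CD for each tested member, with lines of ± SE, in kidney (left) and gastrocnemius (right), ordered by role; filled points passed an adjusted p of 0.05, and the axes of the panels differ in range. In kidney 7 points are filled to the right and 1 to the left, in gastrocnemius 5 and 1, with Mmp12 at 3.70.

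Without CD replicate 5 or without WD replicate 3 the kidney count of 8 became 5, and without WD replicate 5, the kidney with raised hepatocyte transcripts, it was 7, since Mmp11 did not pass. Genes of other cell marker lists also differed between the CD and WD kidneys. Of 8 fibroblast genes, Col1a1 and Col1a2 were higher in WD kidneys, and the summed level was 88.5 to 122 CPM in CD and 110 to 131 CPM in WD. Of 6 smooth muscle and pericyte genes 2 were higher, with sums of 103 to 131 and 119 to 156 CPM. Of 6 lymphocyte genes edgeR called 1 and DESeq2 3, all 6 had an unadjusted p under 0.05, and the sums were 2.40 to 3.51 CPM in CD and 3.27 to 10.05 CPM in WD. Of 8 proximal tubule genes Slc5a2 was higher and Cubn lower, with sums of 11579 to 13026 CPM in CD and 12285 to 13191 CPM in WD. Of 6 hepatocyte genes 2 were higher, with sums of 103 to 239 and 191 to 829 CPM, and of 5 tested adipocyte genes 1 was lower, with sums of 25.4 to 50.5 and 27.5 to 33.9 CPM. None of the genes on these lists was at 0 throughout, and their part in the result was not tested.

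With CHP added to WD, none of the 36 tested members passed in kidney, with or without WD replicate 5, beside 0.105% of all genes tested there. By edgeR 3 of the 36 had an unadjusted p under 0.05, a smaller share than the 11.4% of all genes, and DESeq2 called 1. The estimate was above 0 for 14 members and below 0 for 22, with a median of -0.12 beside -0.0058 over all genes. The 3 members were Timp2, Mmp2 and Adamtsl1, and all had negative estimates.

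Timp2, which inhibits MMPs and, bound to Mmp14, takes part in activating Mmp2, was at 60.4, 62.0, 58.1, 57.8 and 63.1 CPM in WD kidneys and at 52.9, 53.6, 51.0, 50.2 and 48.0 CPM in WD + CHP kidneys. The groups did not overlap. WD + CHP minus WD was -0.24 ± 0.06 (log2) with an edgeR adjusted p of 0.138 and a DESeq2 adjusted p of 0.0323. Mmp2 was at 2.85, 2.82, 2.92, 3.72 and 2.44 CPM in WD + CHP kidneys, a difference from WD of -0.35 ± 0.14 (adjusted p 0.346). Adamtsl1 had -0.32 ± 0.14 (adjusted p 0.408).

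Against CD, 6 members passed in WD + CHP kidneys, 5 higher and 1 lower, beside 12.1% of all genes. This comparison and WD vs. CD share the CD kidneys. Timp3 was at 1336, 1181, 1292, 1559 and 1354 CPM in WD + CHP kidneys, all above CD, with a log2 difference of 0.42 ± 0.08 (edgeR adjusted p 0.00448), and its difference from WD was 0.03 ± 0.08. Adamts2 (0.51 ± 0.13, adjusted p 0.0155) and Adamtsl2 (0.59 ± 0.15, adjusted p 0.0199) were also above CD in every WD + CHP kidney. Mmp11 was at 5.17, 4.49, 3.84, 4.16 and 2.90 CPM, below every CD kidney, with a difference of -0.59 ± 0.14 (adjusted p 0.0149), and the call was lost without CD replicate 5 (adjusted p 0.0509).

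Adamts9, a proteoglycan-cutting enzyme, and Mmp12 passed against CD in WD + CHP kidneys and not in WD kidneys, a pair of comparisons whose difference is the WD + CHP vs. WD test, where neither passed. Adamts9 had a log2 difference of 0.25 ± 0.07 (edgeR adjusted p 0.0358), and its call held in 3 of 10 fits with a library left out and was lost under total count scaling (0.0848). Mmp12 was at 3.06, 4.36, 2.82, 3.02 and 2.93 CPM in CD and at 4.41, 4.87, 5.34, 4.46 and 3.52 CPM in WD + CHP kidneys, a difference of 0.48 ± 0.12 (adjusted p 0.0203). CD replicate 2 reached into the WD + CHP range, and the call held in 8 of 10 fits with a library left out. Adamts14 (0.55 ± 0.18, adjusted p 0.0535) and Adamtsl5 (0.37 ± 0.13, adjusted p 0.0694) did not pass against CD. Without CD replicate 5 the count of 6 became 3, and without WD replicate 5, which shares the fit, it was 6.

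Markers of other cells also differed between CD and WD + CHP kidneys. Of 8 proximal tubule genes Slc5a2 was higher (log2 difference 0.30) and Cubn (-0.21) and Slc7a7 (-0.33) were lower, with sums of 11579 to 13026 CPM in CD and 11881 to 13977.5 CPM in WD + CHP. Higher were also 1 of 8 fibroblast genes, Col1a1 (0.58), with sums of 88.5 to 122 and 91.6 to 122 CPM, and 1 of 6 hepatocyte genes, Ttr (0.86), with sums of 103 to 239 and 205 to 266 CPM. Pecam1, 1 of 6 endothelial genes (-0.18), and Fmod, 1 of 5 tested tendon genes (-0.53), were lower, with sums of 294 to 342 and 282 to 320 CPM for the endothelial list and of 13.1 to 18.8 and 9.54 to 13.6 CPM for the tendon list. Their part in the calls of the 6 members was not tested.

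**Figure D3:**
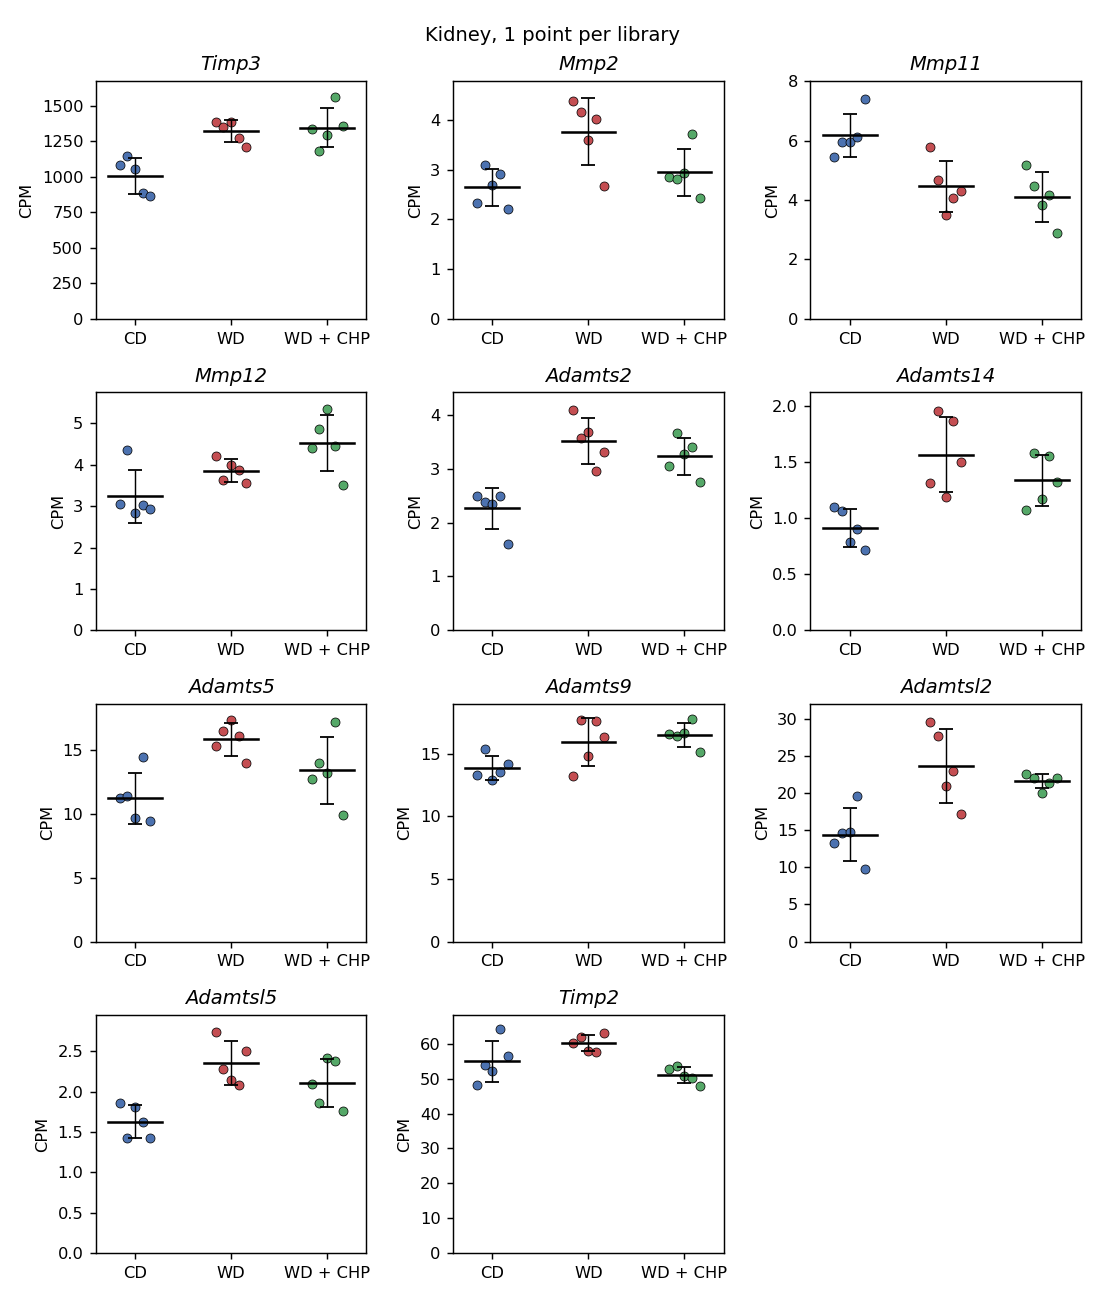
CPM of 11 members in kidney, 1 point per library, in CD (blue), WD (red) and WD + CHP (green); bars are the mean and error bars ± SD (n = 5), and every axis starts at 0. Timp3, Adamts2, Adamts14 and Adamtsl5 do not overlap between CD and WD, and Timp2 does not overlap between WD and WD + CHP.

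In gastrocnemius, WD vs. CD gave 6 of 36 tested members, 5 higher (Mmp12, Adamts8, Adamtsl4, Mmp17 and Adamtsl5) and 1 lower (Adamtsl1), beside 8.63% of all genes tested in muscle. Before adjustment 10 of the 36 had p under 0.05, a share near the 23.7% of all genes. The estimate was above 0 for 22 members and below 0 for 14, with a median log2 difference of 0.11 beside 0.0013 over all genes.

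Mmp12 (chr9:7344381-7369499, plus strand), the elastase of macrophages, had the largest difference among the tested members. Its counts were 3, 3, 5, 1 and 3 in the CD muscles, 69, 44, 46, 19 and 31 in the WD muscles and 4, 16, 7, 13 and 2 in the WD + CHP muscles. As levels these were 0.0580, 0.0568, 0.0974, 0.0204 and 0.0576 CPM in CD, and 1.32, 0.824, 0.841, 0.351 and 0.593 CPM in WD. Every WD muscle was above every CD muscle. The log2 difference was 3.70 ± 0.49 (13.0-fold, edgeR adjusted p 0.000264) and lay between 3.43 and 3.95 with any 1 library of the groups left out. Mmp12 passed the low-count filter through the WD muscles, the group where it is high, since no CD muscle had more than 5 counts, so a difference was a condition of its being tested; with no low-count filter the difference was 3.70 (adjusted p 0.000212). The CD counts are few, so the size of the fold rests on them. A part of the Mmp12 exons (2.17%) lies opposite Mmp1b, which had 0 counts in all 30 libraries.

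Mmp12 lies in a cluster of 10 Mmp genes on chromosome 9 (chr9:7272514-7699585), and its upstream sequence is shown beside that of Mmp13, collagenase-3, at the edge of the cluster. Mmp13 was chosen after its values were seen; in kidney it had a WD vs. CD log2 difference of 0.45 (edgeR adjusted p 0.0670), and in gastrocnemius it did not pass the filter. The regions are chr9:7344147-7344380 and chr9:7272264-7272513 (GRCm38.p6, plus strand, 5′ to 3′, ending where the gene begins). Capitals mark an AP-1 site and a TATA box.
Mmp12: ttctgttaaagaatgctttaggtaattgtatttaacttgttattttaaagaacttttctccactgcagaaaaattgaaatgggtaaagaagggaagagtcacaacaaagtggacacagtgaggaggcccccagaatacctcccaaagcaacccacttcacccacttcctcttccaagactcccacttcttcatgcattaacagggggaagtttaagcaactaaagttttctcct
Mmp13: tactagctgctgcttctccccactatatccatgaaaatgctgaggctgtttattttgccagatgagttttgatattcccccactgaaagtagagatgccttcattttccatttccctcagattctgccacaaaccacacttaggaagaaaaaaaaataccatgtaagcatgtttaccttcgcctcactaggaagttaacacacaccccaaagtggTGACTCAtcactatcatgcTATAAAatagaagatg
Mmp13 had an AP-1 site 35 bases and a TATA box 16 bases before its start, and Mmp12 had none of the 4 motifs in this window. In the cluster 7 of 10 promoters held an AP-1 site, 7 a TATA box, 2 a CCAAT box and 0 a GC box. Of the 26 members elsewhere with a promoter entry, 0 held an AP-1 site, 3 a TATA box, 5 a CCAAT box and 20 a GC box. Neighbouring members of the cluster are related in sequence, so these counts are not independent.

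Adamts8, a proteoglycan-cutting enzyme, was at 1.99, 1.53, 1.44, 1.49 and 1.25 CPM in CD and at 2.80, 5.64, 6.27, 1.37 and 2.56 CPM in WD muscles. WD replicates 2 and 3 were highest, and WD replicate 4 lay within the CD range. The log2 difference was 1.27 ± 0.30 (2.42-fold, edgeR adjusted p 0.0150; limma-voom adjusted p 0.0670, not passed), and 10.6% of its exons lie opposite Gm29724. Mmp17, a membrane-type enzyme held by a glycolipid anchor, was at 0.716, 0.738, 0.662, 0.611 and 0.749 CPM in CD and at 0.953, 1.20, 0.95, 1.02 and 0.861 CPM in WD. The groups did not overlap, with a difference of 0.52 ± 0.12 (adjusted p 0.0151), and the call was lost in a fit of the CD and WD muscles alone (adjusted p 0.0501).

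The ADAMTS-like genes split in muscle. Adamtsl4, a fibrillin-binding protein of the eye and other tissues, was at 15.9, 21.7, 24.6, 17.8 and 21.3 CPM in CD and at 27.5, 36.4, 30.5, 32.8 and 29.0 CPM in WD, without overlap (log2 difference 0.63 ± 0.15, edgeR adjusted p 0.0138). Adamtsl5 was at 25.5, 33.1, 24.4, 24.2 and 24.8 CPM in CD and at 34.0, 35.9, 42.8, 31.3 and 37 CPM in WD. CD replicate 2 stood apart from the other CD muscles and above WD replicate 4, and the difference was 0.46 ± 0.10 (adjusted p 0.0120). Adamtsl1, a secreted matrix protein, went the other way. It was at 8.09, 6.77, 6.49, 5.56 and 5.76 CPM in CD and at 5.39, 5.13, 5.23, 4.78 and 4.56 CPM in WD, without overlap (-0.38 ± 0.10, adjusted p 0.0214), and did not pass under total count scaling (adjusted p 0.0527). Adamtsl2 had 0.67 ± 0.22 (adjusted p 0.0646) and did not pass.

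None of the 4 inhibitors passed in muscle with WD. Timp1, an inhibitor induced in injured tissue, had 0.75 ± 0.30 (edgeR adjusted p 0.135) at levels of at most 0.498 CPM, Timp4 0.25 ± 0.09 (0.0958), Timp3 0.15 ± 0.10 (0.391) and Timp2 -0.03 ± 0.08 (0.881). The gelatinases did not pass either. Mmp9 was at 3.19, 2.84, 1.23, 3.70 and 1.73 CPM in CD and at 1.47, 1.52, 1.13, 0.849 and 1.36 CPM in WD, with a difference of -1.0 ± 0.32 (adjusted p 0.0637), and Mmp2 had -0.12 ± 0.16 (0.677).

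Without CD replicate 1 and WD replicate 3, the muscles with raised hepatocyte transcripts, 3 members passed in WD vs. CD: Mmp12 (3.67, edgeR adjusted p 0.0031), Adamts8 (1.11, 0.0452) and Mmp17 (0.54, 0.0464). Adamtsl4 (0.56, 0.0605), Adamtsl5 (0.38, 0.0694) and Adamtsl1 (-0.31, 0.0709) kept their direction and did not pass. This leave-out was chosen after the data had been seen. Fewer libraries also lower the power for all genes, so the smaller count cannot be read as particular to these members. Of 6 smooth muscle and pericyte genes 2 were higher in WD muscles, with sums of 375 to 453 CPM in CD and 461 to 501 CPM in WD. Of 8 fast muscle fibre genes Ckm was lower (-0.26) and 6 had an unadjusted p under 0.05, with sums of 154895 to 186785 CPM in CD and 134583 to 162991 CPM in WD. Of 6 slow fibre genes edgeR and DESeq2 called 0, with 3 at an unadjusted p under 0.05 by edgeR, a median of 0.55 and sums of 560 to 1542 and 757 to 2753 CPM. Of 6 genes on the podocyte list, a kidney cell type, 3 were tested in muscle and Podxl was higher (0.33). The list does not mark podocytes in muscle. The part of these lists in the calls was not tested.

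With CHP added to WD, 1 member was lower in muscle, Mmp12, beside 0.409% of all genes tested. Mmp12 was at 0.0780, 0.305, 0.134, 0.255 and 0.0382 CPM in WD + CHP muscles, all below the lowest WD muscle. The log2 difference was -2.26 ± 0.41 with an edgeR adjusted p of 0.0250, and WD was 4.79-fold higher. As above, the gene was tested because of its counts in WD (19 to 69, beside 2 to 16 in WD + CHP), and with no low-count filter the difference was -2.25 (adjusted p 0.0452). The call did not survive the loss of WD replicate 1, of WD replicate 2, or of any of WD + CHP replicates 1, 3 and 5, with adjusted p from 0.0122 to 0.0957 over the 10 fits, and without CD replicate 1 and WD replicate 3 it was -2.23 (0.0654). A fit of the WD and WD + CHP muscles alone also lost the call. Against CD the WD + CHP muscles differed by 1.44 ± 0.60 (adjusted p 0.140), a comparison that shares its libraries with the other comparisons.

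Macrophage and adipocyte markers were read beside Mmp12 in muscle. By edgeR 0 of 8 macrophage genes passed in WD vs. CD and 0 in WD + CHP vs. WD, with 3 and 1 at an unadjusted p under 0.05, and DESeq2 called 1 and 0. Their summed level was 65.8 to 112 CPM in CD, 75.7 to 108 in WD and 55.9 to 113 in WD + CHP. Of 8 adipocyte genes, Lep (3.96), Cidec (1.38), Adipoq (1.0) and Plin1 (0.93) were higher and Cfd (-1.59) lower in WD vs. CD on the log2 scale. With CHP the first 4 of these were lower than in WD, Lep by -1.89, Cidec by -1.31, Adipoq by -1.15 and Plin1 by -0.98. The summed adipocyte level was 113 to 186 CPM in CD, 168 to 218 in WD and 98.7 to 163 in WD + CHP. No gene of either list was at 0 in all libraries, and the part of these cells in the Mmp12 result was not tested.

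Before adjustment 8 of 36 members, Mmp12 included, had p under 0.05 in WD + CHP vs. WD of muscle, beside 12.5% of all genes. The estimate was above 0 for 9 members and below 0 for 27, with a median of -0.13 beside -0.013 over all genes. Adamts5 was at 20.6, 16.7, 18.8, 16.4 and 16.2 CPM in WD and at 12.5, 15.7, 14.8, 12.7 and 14.5 CPM in WD + CHP. These groups did not overlap, with a difference of -0.34 ± 0.08, an edgeR adjusted p of 0.110 and a DESeq2 adjusted p of 0.0216. Timp1 had -0.88 ± 0.31 (edgeR adjusted p 0.243) and Timp2 -0.22 ± 0.09 (0.305). Among the 8 members, Mmp15 (0.21, edgeR adjusted p 0.278) and Mmp17 (0.25, 0.394) were higher with CHP, and the others had negative estimates. Of 6 tendon genes edgeR and DESeq2 called 0 in this comparison and 5 had an unadjusted p under 0.05, with a median of -0.86 and sums of 243 to 691 CPM in WD and 201 to 293 in WD + CHP. Their part in the values of these members was not tested.

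**Figure D4:**
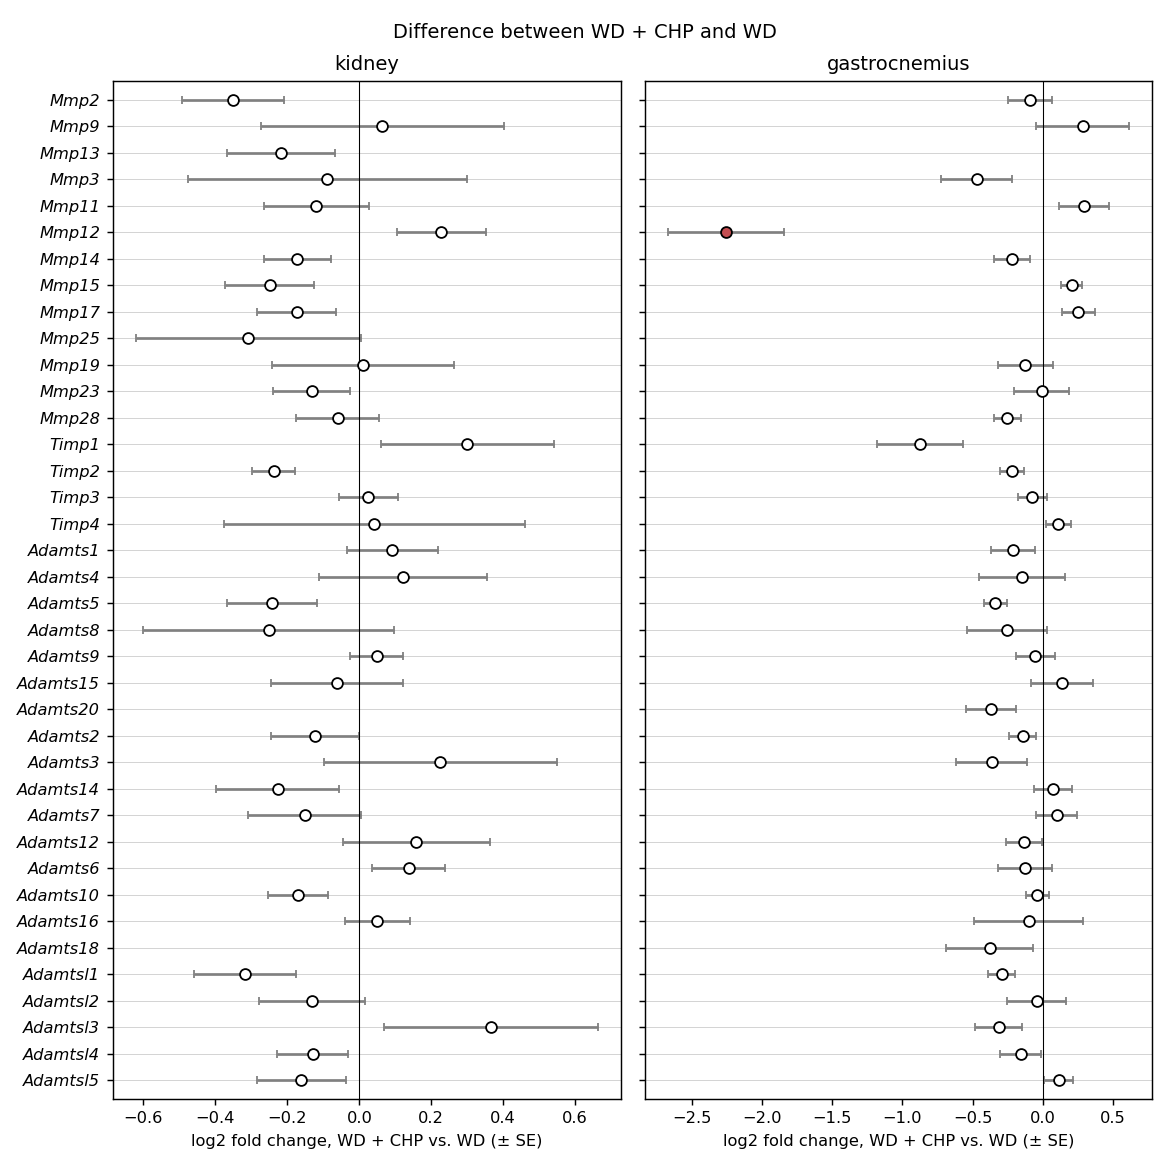
Log2 difference WD + CHP vs. WD for each tested member, with lines of ± SE, in kidney (left) and gastrocnemius (right); filled points passed an adjusted p of 0.05, and the axes of the panels differ in range. The filled point is Mmp12 in gastrocnemius at -2.26.

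Against CD, 7 members passed in WD + CHP muscles, 4 higher and 3 lower, beside 9.40% of all genes. Mmp17 was at 1.15, 1.07, 1.18, 1.24 and 1.30 CPM, above every CD muscle (log2 difference 0.77 ± 0.12, edgeR adjusted p 0.00136). Adamtsl5 differed by 0.57 ± 0.10 (0.00334) and Timp4, an inhibitor of heart and skeletal muscle, by 0.36 ± 0.09 (0.0194; 0.0526 without WD + CHP replicate 2). Adamts8 differed by 1.02 ± 0.31 (0.0466), and that call held in none of the 10 fits with a library left out (adjusted p 0.0519 to 0.102), nor without a low-count filter, with a replicate block or by limma-voom (0.0529 to 0.0785).

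Of the 3 that were lower, Adamtsl1 was at 4.19, 3.72, 3.80, 4.67 and 4.10 CPM, below every CD muscle (log2 difference -0.67 ± 0.10, edgeR adjusted p 0.000878). Adamts5 was at 19.3, 20.02, 18.4, 18.8 and 22.6 CPM in CD and below that in every WD + CHP muscle (-0.50 ± 0.08, adjusted p 0.00174). Mmp14, the membrane-type enzyme that activates Mmp2, was at 14.6, 15.1, 12.3, 11.2 and 10.6 CPM in CD and at 9.90, 8.45, 7.33, 9.14 and 11.1 CPM in WD + CHP (-0.48 ± 0.13, adjusted p 0.0284). Its call held in 4 of 10 fits with a library left out, and was lost without CD replicate 1 and WD replicate 3 (-0.42, adjusted p 0.0724), where the other 6 of the 7 members passed.

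Of 6 tendon genes 3 were lower in WD + CHP vs. CD, with sums of 319 to 682 CPM in CD and 201 to 293 in WD + CHP, and of 8 fibroblast genes 1 was lower, with sums of 574 to 998 and 504 to 723 CPM, which overlap. Of the fibroblast genes Dpt, Pi16 and Mfap5 had estimates above 0 (0.17, 0.13 and 0.17). Other lists moved the other way or both ways. Of 6 smooth muscle and pericyte genes Acta2 (0.56) and Tagln (0.41) were higher, with sums of 375 to 453 and 410 to 499 CPM. Of 6 genes on the podocyte list, a kidney cell type, 3 were tested in muscle, where the list does not mark podocytes. Podxl was higher (0.48), with list sums of 286 to 327 and 335 to 548 CPM. Of 8 adipocyte genes Lep was higher (2.08) and Cfd lower (-1.59), with sums of 113 to 186 and 98.7 to 163 CPM. The part of these lists in the 4 higher and 3 lower members was not tested.

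**Figure D5:**
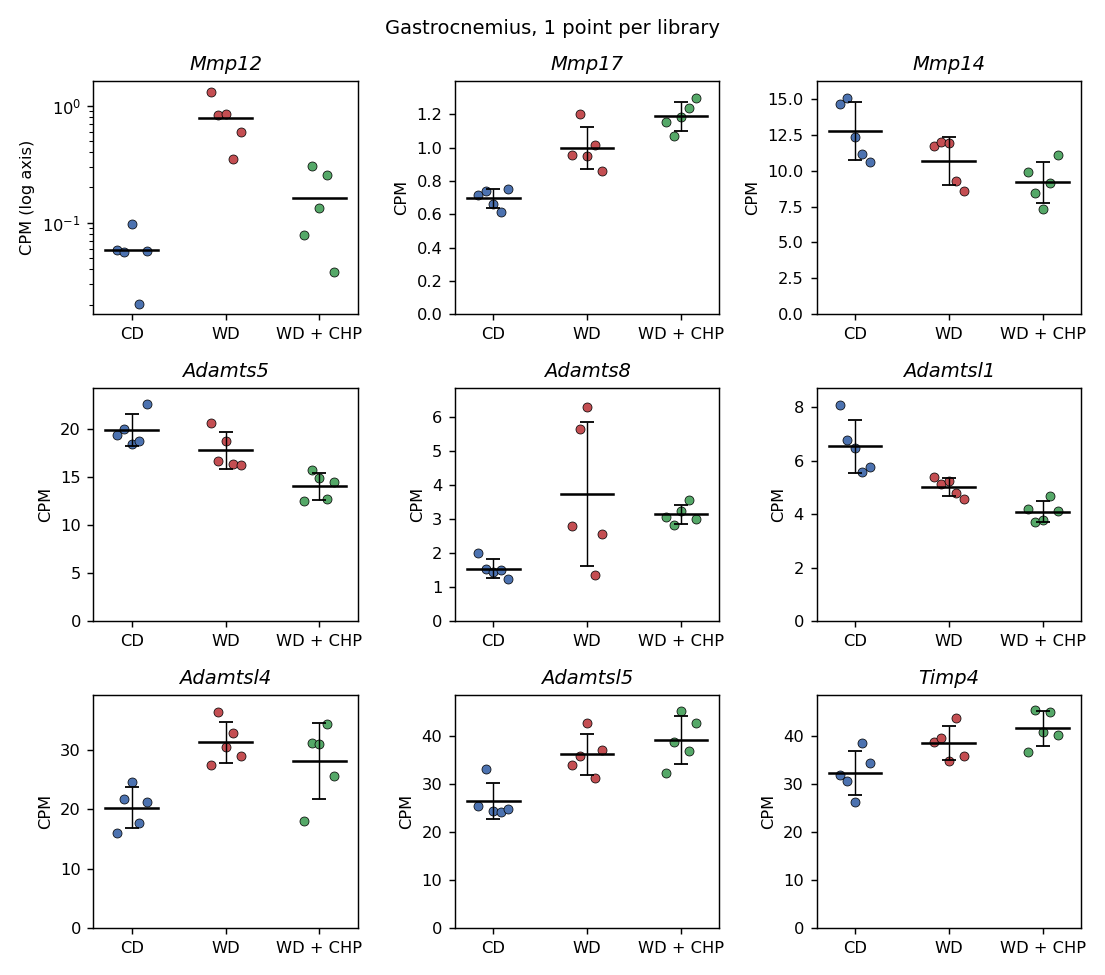
CPM of 9 members in gastrocnemius, 1 point per library, in CD (blue), WD (red) and WD + CHP (green); bars are means, error bars ± SD (n = 5), the Mmp12 axis is logarithmic without error bars and the other axes start at 0. Mmp12 is high in all 5 WD muscles, and Adamts5 and Adamtsl1 have their lowest means in WD + CHP.

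Whether the tissues differed in their response was tested as an interaction over all 30 libraries, taken as independent. For WD vs. CD, 3 of 37 members passed, beside 4.13% of all genes. The difference of kidney minus gastrocnemius was 0.72 ± 0.16 for Adamts2 (edgeR adjusted p 0.00693) and 0.66 ± 0.15 for Adamts5 (0.0119), both with a higher estimate in kidney. In muscle Adamts2 had a WD vs. CD estimate of -0.08 ± 0.09 and Adamts5 -0.16 ± 0.08. For Mmp12 it was -3.45 ± 0.47 (4.61e-05), with a kidney estimate of 0.25 ± 0.13. Before adjustment 8 of the 37 had p under 0.05, a share near the 17.7% of all genes.

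For WD + CHP vs. WD, 1 of 37 members passed the interaction, beside 0.347% of all genes. Mmp12 had a kidney minus gastrocnemius difference of 2.48 ± 0.40 (edgeR adjusted p 0.00491), from a kidney estimate of 0.23 ± 0.12 and the fall in muscle. Adamtsl5 rose with WD in both tissues, and its interaction was 0.08 ± 0.17 (adjusted p 0.890). For Adamts8 the interaction with WD was -1.54 ± 0.53 (0.103), and for Adamts14 0.63 ± 0.23 (0.118), so neither was shown to differ between tissues.

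The genes around this family were read from lists. For WD vs. CD in kidney their counts stand beside 9.65% of all genes tested. In WD kidneys, of 23 tested matrix substrates and partners 8 were higher and 2 lower (median log2 difference 0.31), among them Hapln1, a link protein of hyaluronan and proteoglycans (log2 difference 1.66 ± 0.36), and Col1a1, a chain of collagen I, whose procollagen Adamts2 and Adamts14 trim (0.73 ± 0.16), which rose, and Reln, a large secreted glycoprotein, which fell (-0.79 ± 0.19). Of 23 activation and inhibition partners 3 were higher and 2 lower (median 0.17). A2m, a broad protease trap, was at -3.68 ± 0.55, and Plau, which starts the plasmin route of Mmp activation, at -0.86 ± 0.13. The mean level of A2m was 0.716 CPM for chow kidneys and 0.0533 CPM for WD kidneys. With CHP added it was 0.235 CPM. A2m was therefore tested mainly because of its CD level, and the size of its fold rests on few WD counts. Of 15 relatives among the metzincins (median 0.047) 1 was higher, Adam11 (1.25 ± 0.22), and 2 were lower, the brush-border meprins Mep1b (-0.38 ± 0.10) and Mep1a (-0.23 ± 0.06).

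In WD muscles 4 of 13 tested metzincin relatives were higher (median 0.18), with Adam12, which marks regenerating fibres and stromal progenitors, at 0.96 ± 0.27, Adam23 at 0.49 ± 0.14 and Adam15 at 0.29 ± 0.07. Of 19 activation and inhibition partners 1 was higher, with a median of -0.028. Of 23 substrates (median -0.032) 3 were higher, Ncan (3.01 ± 0.55), Thsd4 (0.47 ± 0.10) and Eln, the substrate that names Mmp12 (0.42 ± 0.10). The mean level of Ncan was 0.0656 CPM for chow muscles and 0.550 CPM for WD muscles. With CHP added it was 0.161 CPM. Ncan was therefore tested mainly because of its WD level, and the size of its fold rests on few CD counts. The same medians over all genes were 0.0015 in kidney and 0.0013 in muscle. The muscle counts stand beside 8.63% of all genes tested there.

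With CHP added to WD, edgeR called 0 genes of these 3 lists, beside 0.105% of all genes in kidney and 0.409% in gastrocnemius. In kidney 5 of 23 substrates, 3 of 23 activation partners and 0 of 15 metzincin relatives had an unadjusted p under 0.05, beside 11.4% of all genes, and DESeq2 called 0, with medians of -0.15, -0.042 and -0.051. In muscle 10 of 23 substrates, 5 of 19 activation partners and 4 of 13 metzincin relatives had an unadjusted p under 0.05, beside 12.5% of all genes, and DESeq2 called 2, 2 and 1, with medians of -0.27, -0.19 and -0.097. In WD + CHP kidneys 3 of 23 substrates were higher than in CD and 3 lower, beside 12.1% of all genes. Hapln1 was at 1.79 ± 0.35, Col1a1 at 0.58 ± 0.16 and Reln at -0.70 ± 0.19. WD + CHP muscles had 3 of 23 substrates higher than CD and 5 lower, beside 9.40% of all genes. The lower ones were led by Fmod, a collagen-binding proteoglycan (-1.22 ± 0.26), Comp, a cartilage and tendon protein (-1.19 ± 0.33), and Thbs1 (-1.15 ± 0.32).

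The members below the filter were few in counts. In kidney the highest count in any library was 15 for Mmp7 (matrilysin), 13 for Adamts20, 10 for Adamts13 (which cleaves von Willebrand factor), 8 for Adamts17 and Mmp16 and at most 4 for Mmp8, Mmp10, Mmp20, Mmp21, Mmp24, Mmp27, Adamts18 and Adamts19. In gastrocnemius the highest was 14 for Mmp16, 13 for Mmp27, 10 for Adamts17 and Mmp25, 6 for Mmp24, 5 for Mmp13 and at most 4 for Mmp7, Mmp8, Mmp10, Mmp20, Mmp21, Adamts13 and Adamts19. Mmp1a and Mmp1b had 0 counts in all 30 libraries. Expression at these counts was not detectable with precision at this depth.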

How the data were processed

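The deposited files were 2 tables of raw read counts per gene, 1 per tissue, made by the authors with STAR 2.7.3a on GRCm38 (mm10) per the submitters' processing notes; the counting program, annotation and strand setting are not given in the sources used here. The labels and the study's methods name different RNA kits for gastrocnemius. Counts were tested per tissue over 15 libraries with edgeR 4.0.16 in R 4.3.3: filterByExpr (minimum count 10), TMM scaling, quasi-likelihood F test, two-sided, Benjamini-Hochberg adjustment over all genes kept (17120 in kidney, 15419 in gastrocnemius), threshold 0.05. CPM are TMM-scaled. SE is the log2 difference divided by the square root of F. The tissue interaction used all 30 libraries (18708 genes). Lengths and coordinates came from GENCODE M21. The fits were tested on simulated data. No 2 libraries of a group agreed within sampling noise.

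Members and lists were chosen with earlier results of these data known. Named were members that passed any test; Timp1, Timp2, Timp3, Timp4, Mmp2, Mmp9 and Mmp14; the 5 highest per length in each tissue; members with unadjusted p under 0.05 and groups without overlap; list genes that passed, at most 3 per comparison by size; and members below the filter. Alternatives were RLE and total count scaling, other filters, DESeq2 1.42.0, limma-voom (limma 3.58.1), 2 groups only, a replicate block and leaving out each library. Some single genes of the lists are not reported here.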

Additional observations from a re-analysis of the deposited data

Results flagged for a closer look

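In 8 of 132 groups of 5 libraries searched, 1 library stood apart from the other 4 by Dixon's ratio (critical value 0.71), where chance gives about 1 in 20 groups. In kidney, Adamts1 was at 43.0 CPM in CD replicate 1, above the others at 33.0 to 34.8, and at 28.4 CPM in WD + CHP replicate 5, below the others at 46.2 to 50.8. Adamts2 was at 1.6 CPM in CD replicate 5 (others 2.35 to 2.5), Adamts8 at 0.108 CPM in WD replicate 3 (others 0.264 to 0.317) and Mmp12 at 4.36 CPM in CD replicate 2 (others 2.82 to 3.06). In gastrocnemius, Adamts15 was at 5.23 CPM in WD + CHP replicate 5 (others 2.59 to 3.33), Adamtsl5 at 33.1 CPM in CD replicate 2 (others 24.2 to 25.5) and Mmp15 at 33.6 CPM in WD replicate 3 (others 28.0 to 29.3).

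The effect differed between tissues by the edgeR interaction test, given as kidney minus gastrocnemius on the log2 scale, for Adamts2 (0.72), Adamts5 (0.66) and Mmp12 (-3.45) in WD vs. CD, and for Mmp12 (2.48) in WD + CHP vs. WD.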

How the results depend on the processing

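No result reversed under any alternative run. For single members 781 values kept their side of the threshold, 66 lost it and 2 gained it. With each library left out in turn, members called ranged from 5 to 8 in kidney WD vs. CD (5 without CD replicate 5 or WD replicate 3), 0 to 0 in kidney WD + CHP vs. WD, 3 to 8 in kidney WD + CHP vs. CD (3 without CD replicate 5), 6 to 7, 0 to 1 and 5 to 8 in the same comparisons of gastrocnemius, and 3 to 4 and 1 to 2 in the interactions for WD and CHP (2 without kidney WD + CHP replicate 1). In kidney WD + CHP vs. WD, DESeq2 called 1, Timp2. In gastrocnemius WD + CHP vs. WD, DESeq2 called 2, while 0 passed with 10 counts in every library, which removes Mmp12, with 2 groups only, or without CD replicate 1 and WD replicate 3. With 10 counts in every library the CHP interaction also had 0, for the same reason. Without CD replicate 1 and WD replicate 3, chosen after seeing the data, gastrocnemius WD vs. CD had 3. The share of all genes passing in each of these fits is not given here. A smaller count therefore cannot be read as particular to the members.

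No pairing by replicate number was seen in deviations from the group means, a check that cannot exclude one. Same-numbered deviations correlated above 0.1 in 3 of 15 pairs in kidney and 1 of 15 in gastrocnemius. In kidney 4 and in gastrocnemius 1 of 15 libraries correlated best with their own number. With a replicate block the members called were 8, 0 and 7 in kidney (WD vs. CD, WD + CHP vs. WD, WD + CHP vs. CD), 7, 1 and 8 in gastrocnemius, and 4 and 1 in the interactions. Depth limits Mmp12 in muscle and the members under the filter.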
